A study of Homo sapiens with 6 samples.

Results

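The 34 genes described here encode the Fanconi anemia and homologous recombination machinery. They were found as the rows whose gene symbol equals 1 of 34 names, a rule that uses no measured value, although the names were chosen with earlier results of these data known. Each name matched 1 row of the 48114 in the table, and all 34 rows were among the 23923 genes with enough signal to be tested. BEZ235, an inhibitor of PI3K and mTOR kinases, was given for 16 h to TC-71, an established Ewing sarcoma cell line. Its solvent DMSO was given to control cells for the same time. The genotype label is WT in both groups, no source used here gives the dose, and each group held 3 libraries made from biological replicates of the 1 line. RNA was measured by sequencing, and values are gene read counts that the authors normalized between libraries.

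DNA interstrand crosslinks and double-strand breaks in replicating cells are repaired with these proteins. A core complex with the ubiquitin ligase FANCL and the conjugating enzyme UBE2T marks the FANCD2 and FANCI pair at a stalled fork, and nucleases then unhook the crosslink. A broken end is trimmed to a single strand by MRE11, RAD50, NBN, RBBP8 and EXO1. BRCA1, PALB2 and BRCA2 help build a nucleoprotein filament on that strand, and the BCDX2 and CX3 complexes, RAD54L and RAD51AP1 help it invade the sister DNA. BLM with RMI1 and RMI2 then takes the joined molecules apart. Homologous recombination is used mainly in S and G2 phase. Ewing sarcoma cells carry the EWSR1-FLI1 fusion and are known for their sensitivity to PARP inhibitors in culture.

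The recovered read total ran from 186274074 to 221626548 in the BEZ235 libraries and from 184790722 to 233767211 in the DMSO libraries, and 3 reads, as much as a count of 0 can hide, equalled 2.50 to 3.47 normalized counts. All 9 Ewing sarcoma markers on the list used, EWSR1, FLI1, CD99, NKX2-2, NR0B1, STEAP1, PRKCB, LIPI and CCK, had signal, their sum lying between 304996 and 313978 normalized counts in BEZ235 libraries and between 377897 and 401803 in DMSO libraries. The 8 blood markers had sums between 2307 and 2430 in BEZ235 libraries and between 2539 and 4001 in DMSO libraries, with CD3E and HBB at 0 in all 6. The 5 endothelial markers had sums between 11.6 and 13.8 in BEZ235 libraries and between 2.06 and 21.6 in DMSO libraries. The 5 epithelial markers had sums between 1099 and 1325 in BEZ235 libraries and between 1698 and 1743 in DMSO libraries, with KRT19 at 0. The 7 fibroblast markers had sums between 39863 and 41654 in BEZ235 libraries and between 32416 and 33450.1 in DMSO libraries. The part of these markers in the results was not tested. The mitochondrial genome took between 0.507% and 0.706% of the signal in BEZ235 libraries and between 2.82% and 3.55% in DMSO libraries; the part of this shift in the results was not tested.

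The proximal promoters of the 3 members with the largest falls and the 3 with the largest rises are printed first, since these members moved furthest in each direction. Each window covers 250 bases before to 50 after a transcription start in RefSeq (GRCh38.p14), 5′ to 3′ on the strand of the gene. The first start by coordinate is shown where a gene has several. Capitals mark matches, on either strand, to the letters TTTCGCGC, TTTGGCGC, TTCCCGCC or TTTCCCGC, which can overlap each other and are called E2F-type here after the E2F factors that bind such letters in genes of DNA replication. The windows lie at chr12:4538640-4538939 (plus strand), chr17:42577680-42577979 (minus strand), chr1:46247438-46247737 (plus strand), chr11:94493795-94494094 (minus strand), chr2:58241276-58241575 (minus strand) and chr11:22625774-22626073 (minus strand).
RAD51AP1: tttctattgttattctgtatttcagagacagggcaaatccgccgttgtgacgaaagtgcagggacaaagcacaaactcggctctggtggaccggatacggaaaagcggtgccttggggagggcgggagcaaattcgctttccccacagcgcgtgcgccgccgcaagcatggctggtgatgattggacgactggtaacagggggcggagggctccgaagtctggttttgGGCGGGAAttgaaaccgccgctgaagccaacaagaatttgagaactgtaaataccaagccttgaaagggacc
PSMC3IP: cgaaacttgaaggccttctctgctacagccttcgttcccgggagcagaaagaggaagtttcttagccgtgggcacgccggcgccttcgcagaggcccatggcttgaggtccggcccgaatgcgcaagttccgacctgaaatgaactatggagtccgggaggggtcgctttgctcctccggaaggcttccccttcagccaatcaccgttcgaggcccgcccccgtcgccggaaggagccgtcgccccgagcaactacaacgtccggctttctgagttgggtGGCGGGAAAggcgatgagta
RAD54L: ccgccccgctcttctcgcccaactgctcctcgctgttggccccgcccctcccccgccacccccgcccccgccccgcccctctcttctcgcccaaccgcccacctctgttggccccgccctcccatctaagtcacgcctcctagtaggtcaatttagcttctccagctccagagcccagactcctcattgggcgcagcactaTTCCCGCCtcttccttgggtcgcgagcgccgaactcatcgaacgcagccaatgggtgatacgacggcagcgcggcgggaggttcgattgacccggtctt
MRE11: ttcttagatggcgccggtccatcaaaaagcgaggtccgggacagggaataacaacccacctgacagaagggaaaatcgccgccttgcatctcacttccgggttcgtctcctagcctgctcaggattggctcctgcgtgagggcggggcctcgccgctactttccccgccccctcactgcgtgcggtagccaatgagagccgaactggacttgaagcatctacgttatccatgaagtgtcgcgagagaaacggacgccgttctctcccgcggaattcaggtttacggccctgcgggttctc
FANCL: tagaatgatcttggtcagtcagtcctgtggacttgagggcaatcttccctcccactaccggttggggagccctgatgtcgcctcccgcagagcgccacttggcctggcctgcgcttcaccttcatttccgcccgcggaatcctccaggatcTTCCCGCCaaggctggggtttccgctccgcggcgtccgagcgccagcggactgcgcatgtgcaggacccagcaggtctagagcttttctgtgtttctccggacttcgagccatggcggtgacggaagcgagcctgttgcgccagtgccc
FANCF: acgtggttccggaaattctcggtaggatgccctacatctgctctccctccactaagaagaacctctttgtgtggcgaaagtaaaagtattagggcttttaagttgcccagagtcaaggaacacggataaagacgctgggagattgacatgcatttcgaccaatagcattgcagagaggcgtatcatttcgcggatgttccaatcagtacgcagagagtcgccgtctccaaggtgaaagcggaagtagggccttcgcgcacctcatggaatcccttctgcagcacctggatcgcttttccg
The printed windows of the 3 genes that fell hold E2F-type letters, as does that of FANCL, which rose. Of the windows not printed, that of RAD54L holds the letters and that of PSMC3IP does not. The letters were not found in the windows of MRE11 and FANCF. A match describes the sequence and is not a shown binding site.

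The RNA of most members was lower in BEZ235 cells. Of the 34 members 27 were lower in BEZ235 cells and 6 were higher at an adjusted p under 0.05 (limma, Benjamini-Hochberg over all tested genes), and RAD51D passed in neither direction. This is 79.4% lower and 17.6% higher, where 33.2% of all 23923 tested genes were lower and 33.1% were higher. Among the 9543 genes whose mean level lay within the members' range, 39.9% were lower and 38.9% were higher. In either direction 97.1% of members were called, against 66.3% of all tested genes. A fall of at least 2-fold was called for 19 members, or 55.9%, where 13.6% of all tested genes fell that far. A rise of at least 2-fold was called for 0 members, where 12.7% of all tested genes rose that far. The values of the groups did not overlap for 33 members, or 97.1%, and for 70.9% of all tested genes. The median log2 fold change of BEZ235 minus DMSO was -1.18 over the members and -0.00 over all tested genes. In bulk RNA, fewer cells that express a gene and less RNA per cell cannot be told apart.

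**Figure D1:**
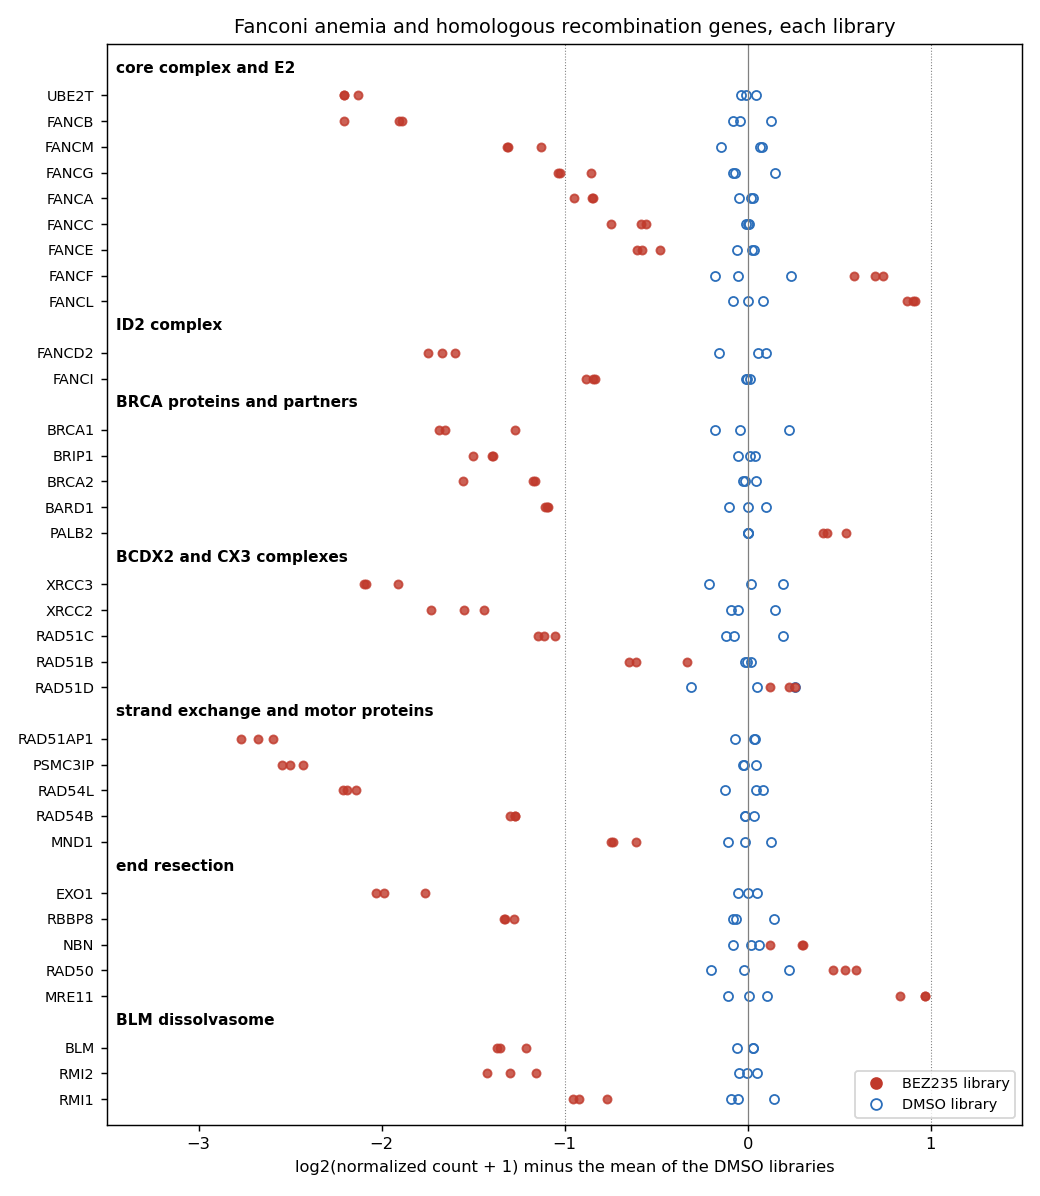
Each row is 1 member, grouped by role, and each point is 1 library; the horizontal axis is log2(normalized count + 1) minus the mean of the 3 DMSO libraries. Filled BEZ235 points lie left of the open DMSO points for the 27 members that fell and right of them for the 6 that rose, and the points mix for RAD51D.

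**Figure D2:**
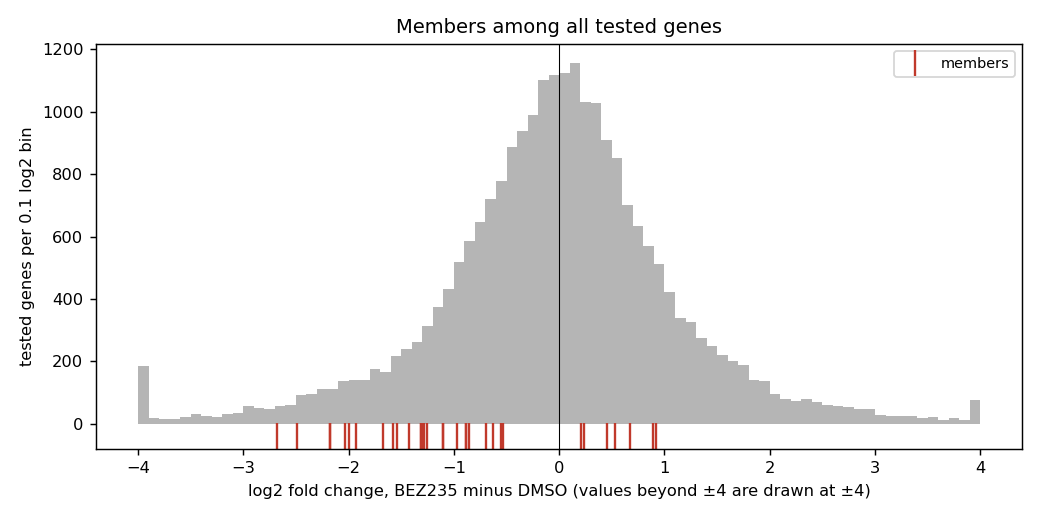
Grey bars count the 23923 tested genes by log2 fold change of BEZ235 minus DMSO in bins of 0.1, and red ticks under them are the 34 members. The members lie mostly left of 0, with a median of -1.18, while the tested genes are centred at -0.00.

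The Fanconi core complex fell in most of its parts but not in all. Of its 8 members here and the E2 enzyme, 7 fell, FANCL and FANCF rose, and the median log2 fold change over the 9 was -0.88. In what follows, the 3 values of a group are normalized counts of replicates 1, 2 and 3, and SE is that of the log2 fold change with 3 libraries in each group. UBE2T, the conjugating enzyme that works with FANCL, had 3597, 3602 and 3800.0 normalized counts in the BEZ235 libraries, against 16470.0, 16199 and 17152 in the DMSO libraries. Every BEZ235 library was far below every DMSO library. It was 4.53-fold lower in BEZ235 cells, with a log2 fold change of -2.18 ± 0.05 (SE, adjusted p = 1.98e-10). FANCB, the X-linked core subunit, had 249, 199 and 246 normalized counts in the BEZ235 libraries, against 1008, 875 and 896 in the DMSO libraries. These groups were as clearly apart. Its log2 fold change was -2.00 ± 0.12 (SE, adjusted p = 1.30e-07). FANCM, the translocase that recruits the complex to DNA, had 474, 419 and 417 normalized counts in the BEZ235 libraries, against 1097, 939 and 1089 in the DMSO libraries. The BEZ235 libraries were again all lower, and the log2 fold change was -1.25 ± 0.10 (SE, adjusted p = 1.21e-06).

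FANCG, FANCA, FANCC and FANCE had smaller falls. FANCG had a log2 fold change of -0.97 ± 0.08 (SE, adjusted p = 1.10e-06), FANCA one of -0.88 ± 0.09 (SE, adjusted p = 4.24e-06) and FANCC one of -0.63 ± 0.07 (SE, adjusted p = 1.82e-05); all 3 are scaffold or adaptor subunits of the complex. FANCE, which contacts FANCD2, moved least in the group, with 3779, 4045 and 3697 normalized counts in the BEZ235 libraries, against 5412, 5767 and 5723 in the DMSO libraries. Its groups did not overlap, and the log2 fold change was -0.55 ± 0.06 (SE, adjusted p = 8.64e-06). FANCL, the catalytic ubiquitin ligase, went the other way, with 3469.8, 3444 and 3364 normalized counts in the BEZ235 libraries, against 1842, 1737 and 1949.6 in the DMSO libraries. All BEZ235 libraries were higher. The log2 fold change was 0.90 ± 0.06 (SE, adjusted p = 4.13e-07), or 1.86-fold higher, so the ligase and its E2 enzyme UBE2T moved in opposite directions. FANCF, an adaptor encoded by a single exon, had 2144, 2081 and 1922 normalized counts in the BEZ235 libraries, against 1135, 1512 and 1239 in the DMSO libraries. It was higher in every BEZ235 library, with a log2 fold change of 0.67 ± 0.10 (SE, adjusted p = 0.000158).

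The FANCD2 and FANCI pair, the substrate of the core complex, fell together but to different extents. FANCD2 (chr3:10026414-10101932 on hg38) had 671, 637 and 706 normalized counts in the BEZ235 libraries, against 1921, 2289 and 2226 in the DMSO libraries. No BEZ235 library came near the DMSO range. It was 3.19-fold lower, with a log2 fold change of -1.67 ± 0.09 (SE, adjusted p = 4.10e-08). FANCI had 7108, 7076 and 6885 normalized counts in the BEZ235 libraries, against 12786, 12677 and 12621 in the DMSO libraries. Its libraries varied little within either group, and its log2 fold change was -0.85 ± 0.05 (SE, adjusted p = 5.43e-08). FANCD2 has pseudogene copies that could share reads with it.

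Among the BRCA proteins and their partners, 4 of 5 fell and PALB2 rose, with a median log2 fold change of -1.30. BRCA1 (chr17:43044295-43125483), the ubiquitin ligase that promotes resection and recruits PALB2, had 618, 808 and 604 normalized counts in the BEZ235 libraries, against 1721, 2282 and 1893 in the DMSO libraries. Replicate 2 was the highest library of its group on each side, and the groups stayed apart. Its log2 fold change was -1.54 ± 0.13 (SE, adjusted p = 1.54e-06); a neighbouring pseudogene copy could share its reads. BRIP1, a helicase that binds BRCA1, had 991, 993 and 921 normalized counts in the BEZ235 libraries, against 2680.0, 2633 and 2517 in the DMSO libraries. All BEZ235 libraries were lower, with a log2 fold change of -1.43 ± 0.07 (SE, adjusted p = 2.22e-08). BRCA2, which helps assemble the filament on single-stranded DNA, had 1458, 1900.4 and 1914 normalized counts in the BEZ235 libraries, against 4204, 4419 and 4233 in the DMSO libraries. Replicate 1 was the lowest of the BEZ235 libraries, and the highest of them was below every DMSO library. The log2 fold change was -1.30 ± 0.10 (SE, adjusted p = 5.93e-07).

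BARD1, the obligate partner of BRCA1, was 2.14-fold lower, with a log2 fold change of -1.10 ± 0.07 (SE, adjusted p = 1.16e-07). PALB2, which bridges BRCA1 and BRCA2, had 2676, 2873 and 2632 normalized counts in the BEZ235 libraries, against 1983, 1981 and 1985 in the DMSO libraries. The BEZ235 libraries were all higher, and the DMSO libraries differed hardly at all. Its log2 fold change was 0.46 ± 0.06 (SE, adjusted p = 6.48e-05). The PALB2 transcript thus rose while those of both proteins it joins fell.

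Of the 5 related subunits of the BCDX2 and CX3 complexes, which help assemble and stabilise that filament, 4 fell and 0 rose, and the median was -1.10 on the log2 scale. XRCC3, the partner of RAD51C in the smaller complex, had 1305, 1316 and 1487 normalized counts in the BEZ235 libraries, against 4826, 6385 and 5649 in the DMSO libraries. The groups lay far apart, with a log2 fold change of -2.03 ± 0.10 (SE, adjusted p = 2.06e-08). Of the 17851 bases of the XRCC3 row, 15204 lie within the row of KLC1, a kinesin light chain, whose mean was 18132 normalized counts in BEZ235 cells and 37220.5 in DMSO cells. Reads of the pair may be shared. XRCC2, a subunit of the larger complex, had 1718, 1406 and 1592 normalized counts in the BEZ235 libraries, against 4383, 5168 and 4494 in the DMSO libraries. Its BEZ235 libraries were all lower, with a log2 fold change of -1.58 ± 0.09 (SE, adjusted p = 6.25e-08). RAD51C, which belongs to both complexes, had 5956, 5712 and 5568 normalized counts in the BEZ235 libraries, against 11369, 14096 and 11723 in the DMSO libraries. It was 2.15-fold lower, with a log2 fold change of -1.10 ± 0.08 (SE, adjusted p = 3.38e-07).

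RAD51B had a smaller log2 fold change, -0.53 ± 0.11 (SE, adjusted p = 0.00108). RAD51D, which joins RAD51C and XRCC2, had 1268, 1298 and 1179.7 normalized counts in the BEZ235 libraries, against 874, 1296 and 1124 in the DMSO libraries. The groups overlapped, since DMSO replicate 2 was as high as the upper BEZ235 libraries. Its log2 fold change was 0.20 ± 0.13 (SE, adjusted p = 0.181), so no change was called. Without DMSO replicate 2 it was 0.33 with an adjusted p of 0.0154. The larger complex thus held RAD51B, RAD51C and XRCC2, which fell, and RAD51D, for which no change was called.

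The strand exchange and motor proteins had the lowest median of the 7 role groups. All 5 fell, at a median of -2.18 on the log2 scale. RAD51AP1, which promotes the capture of duplex DNA in strand exchange, had 395, 370.2 and 419 normalized counts in the BEZ235 libraries, against 2587, 2595 and 2404 in the DMSO libraries. No other member fell as far: it was 6.40-fold lower, with a log2 fold change of -2.68 ± 0.08 (SE, adjusted p = 1.04e-09), at percentile 2.37 of all tested genes. PSMC3IP, also called HOP2, had 464, 451 and 488 normalized counts in the BEZ235 libraries, against 2591, 2723 and 2593 in the DMSO libraries. The groups were as widely apart, and the log2 fold change was -2.49 ± 0.08 (SE, adjusted p = 9.00e-10). RAD54L, a motor protein that drives branch migration, had 891, 849 and 861 normalized counts in the BEZ235 libraries, against 4056, 3599.9 and 4164 in the DMSO libraries. It was 4.53-fold lower, with a log2 fold change of -2.18 ± 0.07 (SE, adjusted p = 1.71e-09).

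RAD54B, a relative of RAD54L whose row carries the symbol FSBP as well, had a log2 fold change of -1.28 ± 0.06 (SE, adjusted p = 1.81e-08). MND1, which forms a heterodimer with PSMC3IP, moved least in this group, with 1555, 1419 and 1424 normalized counts in the BEZ235 libraries, against 2597, 2203 and 2349 in the DMSO libraries. Its BEZ235 libraries were all lower, and the log2 fold change was -0.70 ± 0.08 (SE, adjusted p = 1.49e-05). The fall of PSMC3IP, 5.62-fold lower, stood beside one of 1.62-fold for MND1, although the proteins work as a pair; the difference between these changes was not tested.

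**Figure D3:**
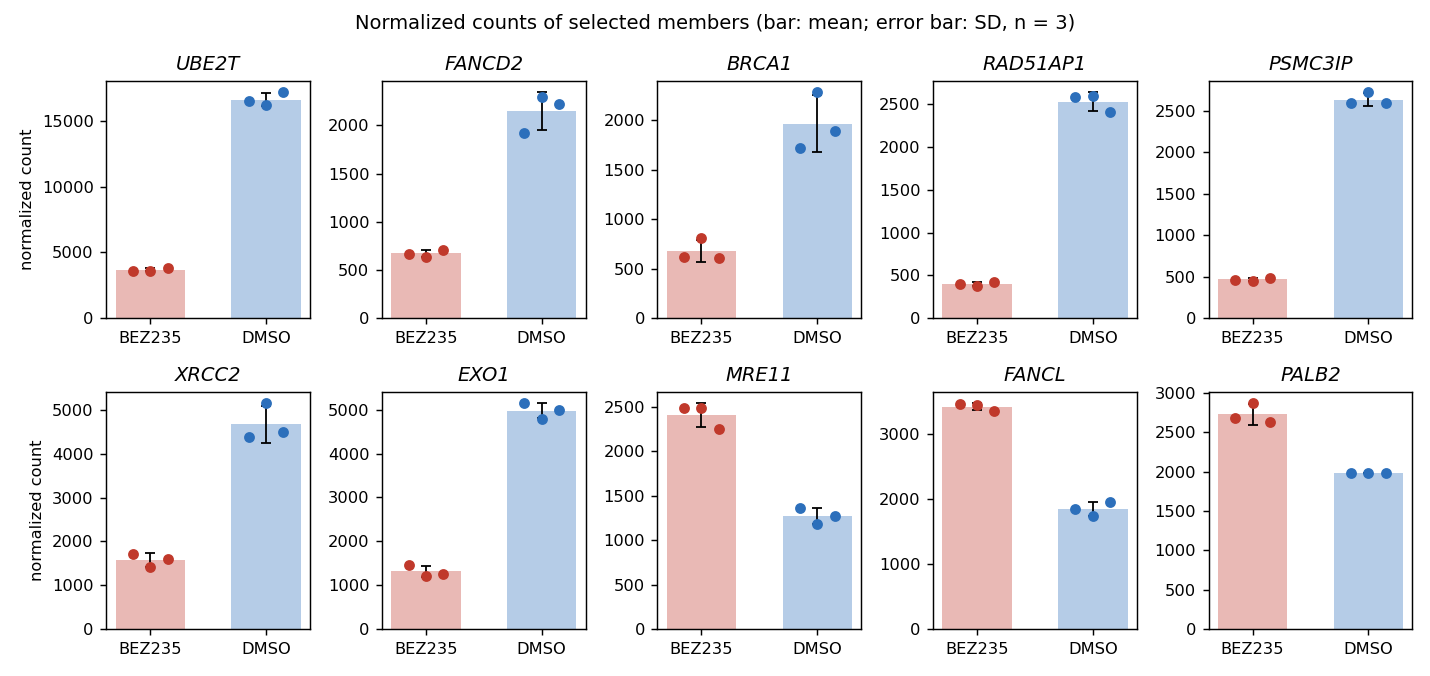
Normalized counts of 10 members, chosen after their values were seen to show falls and rises; bars are means, error bars are SD (n = 3) and points are libraries, with BEZ235 left of DMSO in each panel. UBE2T, FANCD2, BRCA1, RAD51AP1, PSMC3IP, XRCC2 and EXO1 are lower in BEZ235 cells, while MRE11, FANCL and PALB2 are higher.

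End resection was split by complex. The 3 subunits of the MRE11, RAD50 and NBN complex, which starts the cut, rose, and EXO1 and RBBP8 fell, so that the median log2 fold change of the 5 was 0.24. EXO1, the exonuclease of long-range resection, had 1463, 1216 and 1253 normalized counts in the BEZ235 libraries, against 5148, 4797 and 4984 in the DMSO libraries. It was lower in all BEZ235 libraries, with a log2 fold change of -1.93 ± 0.08 (SE, adjusted p = 5.78e-09). RBBP8, also called CtIP, activates the nuclease of MRE11 and had 2936, 2826 and 2838 normalized counts in the BEZ235 libraries, against 6738, 7866 and 6798 in the DMSO libraries. Its groups were well apart, with a log2 fold change of -1.31 ± 0.07 (SE, adjusted p = 3.46e-08).

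MRE11, the nuclease itself, had 2488, 2488 and 2257 normalized counts in the BEZ235 libraries, against 1366, 1178 and 1274 in the DMSO libraries. All BEZ235 libraries were higher. It was 1.89-fold higher, with a log2 fold change of 0.92 ± 0.08 (SE, adjusted p = 1.54e-06), and no other member rose as far. RAD50, the ATPase that tethers DNA ends, had 8760.3, 9143 and 8385 normalized counts in the BEZ235 libraries, against 5283, 7089 and 5982 in the DMSO libraries. The groups did not overlap, and the log2 fold change was 0.53 ± 0.09 (SE, adjusted p = 0.000404). NBN, the regulatory subunit, had 10870.4, 10818 and 9584 normalized counts in the BEZ235 libraries, against 8931, 9219 and 8352 in the DMSO libraries. The lowest BEZ235 library was just above the highest DMSO library, and the log2 fold change was 0.24 ± 0.06 (SE, adjusted p = 0.00713). With libraries scaled to their total counts, NBN had a log2 fold change of 0.14 with an adjusted p of 0.0685, which ends the call.

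The BLM dissolvasome fell in all 3 of its members here, with a median log2 fold change of -1.30. BLM, the helicase mutated in Bloom syndrome, had 1167, 1156 and 1289 normalized counts in the BEZ235 libraries, against 3045, 2866 and 3048 in the DMSO libraries. The log2 fold change was -1.31 ± 0.07 (SE, adjusted p = 4.59e-08), and the groups were far apart. RMI2 had 1772, 1606 and 1471 normalized counts in the BEZ235 libraries, against 4089.7, 3833 and 3950.1 in the DMSO libraries, with a log2 fold change of -1.30 ± 0.08 (SE, adjusted p = 8.56e-08). RMI1, which stabilises the complex with topoisomerase TOP3A, had 5557, 4888 and 5008 normalized counts in the BEZ235 libraries, against 9145, 10459 and 8912 in the DMSO libraries. No BEZ235 library reached the DMSO range, and the log2 fold change was -0.88 ± 0.07 (SE, adjusted p = 1.29e-06).

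Levels were compared between members only per kilobase of exon (GENCODE v29). UBE2T had the highest level per kilobase in both groups, with 2219 ± 70.0 normalized counts per kilobase in BEZ235 cells and 10053 ± 297 in DMSO cells (SD, n = 3 each). The order of the others changed. NBN stood at place 2 of 34 in BEZ235 cells and place 7 in DMSO cells, FANCL at place 5 in BEZ235 cells and place 16 in DMSO cells, and MRE11 at place 17 in BEZ235 cells and place 29 in DMSO cells. RAD51AP1 moved the other way, standing at place 24 in BEZ235 cells and place 14 in DMSO cells. With the longest coding transcript as the length, UBE2T stayed at place 1 in both groups, NBN stood at place 2 in BEZ235 cells and place 9 in DMSO cells, and RAD51AP1 at place 26 in BEZ235 cells and place 16 in DMSO cells.

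Rows can share reads where genes overlap. Overlaps were taken between whole rows from start to end, introns included. Of the 34 members 13 overlapped another row with a mean of at least 10 normalized counts, and 21 did not. Among those 21, 17 fell, 3 rose and 1 was not called. FANCL shares 678 bases with VRK2, whose mean was 6513 normalized counts in BEZ235 cells and 2944 in DMSO cells. The means of FANCL were 3426 and 1843, and the log2 fold changes were 1.14 for VRK2 and 0.90 for FANCL. RMI1 shares 257 bases with HNRNPK, whose mean was 126595 normalized counts in BEZ235 cells and 117766 in DMSO cells. The means of RMI1 were 5151 and 9505. RAD54L shares 7753 bases with LRRC41, which had a log2 fold change of 0.78, against a fall of RAD54L. FANCA shares 3377 bases with ZNF276, whose mean was 3002 normalized counts in BEZ235 cells and 2102 in DMSO cells. The means of FANCA were 561 and 1036, and the log2 fold changes were 0.52 for ZNF276 and -0.88 for FANCA. FANCF shares 333 bases with an unnamed row that had a log2 fold change of 0.84, beside 0.67 for FANCF. PSMC3IP shares 930 bases with MLX, which had a log2 fold change of 0.47, and FANCI shares 957 bases with POLG, which had one of -0.61. The whole row of RAD50 lies within that of IL5 and SHROOM1, whose mean was 263 normalized counts in BEZ235 cells and 100.3 in DMSO cells. TH2LCRR covers 15760 bases of RAD50, with a mean of 2404 normalized counts in BEZ235 cells and 1642 in DMSO cells and a log2 fold change of 0.56, beside 0.53 for RAD50. How many reads these rows share is not known.

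The rest of the recombination pathway was read from 3 further lists with 68 tested rows, of which 29 were lower, 21 were higher and 18 were not called, with a median log2 fold change of -0.08. These shares stand nearer to those of all tested genes, 33.2% lower and 33.1% higher, than the members' shares did. The list of other homologous recombination factors had 30 tested rows, with 16 lower, 6 higher and 8 not called and a median log2 fold change of -0.29. POLQ, the polymerase of microhomology-mediated end joining, had 310.4, 364 and 338 normalized counts in the BEZ235 libraries, against 2193, 2296 and 2251 in the DMSO libraries, and its log2 fold change was -2.73 ± 0.09 (SE, adjusted p = 1.29e-09). MCM8, a helicase subunit of recombination, averaged 1755 ± 59.3 in BEZ235 cells and 7487 ± 351 in DMSO cells (SD, n = 3 each), with a log2 fold change of -2.09 ± 0.06 (SE, adjusted p = 6.12e-10).

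In the other direction HELQ, a helicase that acts with BCDX2, had a log2 fold change of 0.93 ± 0.09 (SE, adjusted p = 3.13e-06). RAD52, an annealing protein, had 554, 581 and 568 normalized counts in the BEZ235 libraries, against 415, 529 and 505 in the DMSO libraries. The BEZ235 libraries were all slightly higher, DMSO replicate 1 was the lowest library, and no change was called. The log2 fold change of RAD52 was 0.24 ± 0.12 (SE, adjusted p = 0.0891). With quantile normalization its adjusted p was 0.0426, and without DMSO replicate 2 it was 0.0353. The 3 subunits of RPA, the single-strand binding protein, went different ways. RPA3 had a log2 fold change of -1.36 ± 0.06 (SE, adjusted p = 6.25e-09), RPA2 one of -0.26 ± 0.06 (SE, adjusted p = 0.00255) and RPA1 one of 0.31 ± 0.07 (SE, adjusted p = 0.00157); RPA2 and RPA1 were chosen after their values were seen.

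Fanconi-associated factors, nucleases and bypass polymerases held 23 tested rows, with 10 lower, 8 higher and 5 not called and a median log2 fold change of -0.05. USP1, which removes the ubiquitin from FANCD2, had 5236, 5058 and 4828 normalized counts in the BEZ235 libraries, against 10146, 11436 and 10138 in the DMSO libraries. Its libraries did not overlap, and the log2 fold change was -1.07 ± 0.06 (SE, adjusted p = 8.69e-08). RFWD3, a ubiquitin ligase of RPA, had a log2 fold change of -1.59 ± 0.06 (SE, adjusted p = 1.87e-09). EME1, a partner of the nuclease MUS81, had one of -1.58 ± 0.07 (SE, adjusted p = 7.94e-09), and the nuclease DCLRE1B one of -1.11 ± 0.05 (SE, adjusted p = 9.68e-09). FAAP100, a core complex partner of FANCB and FANCL, averaged 15170.0 ± 556 in BEZ235 cells and 9453 ± 752 in DMSO cells (SD, n = 3 each), with a log2 fold change of 0.68 ± 0.06 (SE, adjusted p = 3.33e-06). The ligase module therefore held FANCB, which fell, beside FANCL and FAAP100, which rose.

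The list of 53BP1, shieldin and BRCA1-A complex genes, whose proteins restrain resection or act around it, had 15 tested rows. Of these 3 were lower, 7 were higher and 5 were not called, with a median log2 fold change of 0.17. No shieldin gene was called higher. SHLD1 had a log2 fold change of -0.007 (adjusted p = 0.963), SHLD2 one of 0.13 (adjusted p = 0.0648) and SHLD3 one of -0.61 (adjusted p = 1.28e-05). With TMM scaling, among other alternatives, SHLD2 was called higher, with an adjusted p of 0.0423. The SHLD3 row carries the symbol TRAPPC13 as well. These 3 genes were named after their values were seen. TP53BP1, which shields broken ends from resection, had 15892, 16655 and 14944 normalized counts in the BEZ235 libraries, against 7135, 7346 and 7326 in the DMSO libraries. All BEZ235 libraries were higher, with a log2 fold change of 1.12 ± 0.05 (SE, adjusted p = 2.04e-08). ABRAXAS1, the scaffold of the BRCA1-A complex, averaged 17212 ± 648 in BEZ235 cells and 4723 ± 237 in DMSO cells (SD, n = 3 each). It was 3.65-fold higher, with a log2 fold change of 1.87 ± 0.06 (SE, adjusted p = 8.09e-10). BRCC3, the deubiquitinase of that complex, had a log2 fold change of 1.14 ± 0.12 (SE, adjusted p = 9.09e-06). MDC1, the adaptor that reads phosphorylated H2AX, fell, with a log2 fold change of -1.18 ± 0.06 (SE, adjusted p = 1.94e-08).

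Other repair pathways did not share the members' direction of count. Over 4 lists with 54 tested rows, 15 were lower, 31 were higher and 8 were not called, with a median log2 fold change of 0.22. Of all tested genes 33.2% were lower and 33.1% were higher. Of 10 end joining genes 4 fell and 6 rose: NHEJ1 had a log2 fold change of 1.05 ± 0.06 (SE, adjusted p = 1.01e-07), POLL one of 0.95 ± 0.07 (SE, adjusted p = 2.88e-07), the Ku subunit XRCC5 one of 0.73 ± 0.06 (SE, adjusted p = 5.93e-07) and the accessory factor PAXX one of -1.20 ± 0.06 (SE, adjusted p = 4.69e-08). Of 7 mismatch repair genes 1 fell, 4 rose and 2 were not called, with 0.99, adjusted p = 7.87e-07 on the log2 scale for MSH3, 0.95, adjusted p = 2.84e-06 for MLH3, 0.26, adjusted p = 0.00345 for MSH6 and -0.33, adjusted p = 0.00071 for PMS2. Of 19 base excision genes 4 fell, 10 rose and 5 were not called. The endonuclease APEX1 had a log2 fold change of 1.84 ± 0.05 (SE, adjusted p = 6.00e-10), the glycosylases NEIL1 and NTHL1 had 1.70 ± 0.11 (SE, adjusted p = 1.76e-07) and 0.89 ± 0.06 (SE, adjusted p = 2.84e-07), and PARP2 had -1.77 ± 0.05 (SE, adjusted p = 6.12e-10). Of 18 nucleotide excision genes 6 fell, 11 rose and 1 was not called. XPA, a damage verifier, had a log2 fold change of 1.24 ± 0.07 (SE, adjusted p = 9.49e-08), ERCC6 one of 1.08 ± 0.07 (SE, adjusted p = 1.35e-07), CETN2 one of 0.84 ± 0.06 (SE, adjusted p = 3.19e-07) and the damage sensor DDB2 one of -1.81 ± 0.08 (SE, adjusted p = 1.05e-08).

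Proliferation genes moved with the members. Of 25 genes of replication and cell division on 1 list, 22 were lower, 0 were higher and 3 (CCNE1, E2F3 and CDT1) were not called, with a median log2 fold change of -0.87. Over all settings 21 to 22 were lower and 0 to 2 were higher. With quantile normalization E2F3 (adjusted p = 0.0255) and CDT1 (adjusted p = 0.0422) were called higher, and MCM7 lost its call (adjusted p = 0.150). The summed level of the 25 genes lay between 165951 and 174269 normalized counts in BEZ235 libraries and between 297217 and 309608 in DMSO libraries. MKI67, a marker of cycling cells, had 5206, 6236 and 5744 normalized counts in the BEZ235 libraries, against 17894, 19225 and 18068 in the DMSO libraries. Its log2 fold change was -1.69 ± 0.07 (SE, adjusted p = 5.66e-09), with no overlap. E2F1, a transcription factor of S phase entry, had 1741, 1678 and 1755 normalized counts in the BEZ235 libraries, against 6235, 6099.7 and 6659 in the DMSO libraries. Its log2 fold change was -1.87 ± 0.06 (SE, adjusted p = 1.16e-09). The kinase CDK1 had a log2 fold change of -3.03 ± 0.05 (SE, adjusted p = 3.67e-11), the factor E2F2 one of -3.22 ± 0.08 (SE, adjusted p = 3.19e-10), cyclin CCNA2 one of -2.53 ± 0.07 (SE, adjusted p = 5.05e-10) and the sliding clamp PCNA one of -1.47 ± 0.05 (SE, adjusted p = 2.74e-09). The part of cell cycle state in the members' falls was not tested.

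Promoter letters were counted in all RefSeq windows. Of the 34 members 30 matched an entry, with 41 windows in all; FANCI, NBN, RAD54B and RMI2 did not. E2F-type letters, as spelled out beside the printed promoters, occurred in at least 1 window of 13 of the 30 members, or 43.3%. The share was 6.0% over 27305 genes in the table and 9.2% over 13934 tested genes. By window it was 39.0% of the 41 member windows and 5.0% of all 35116. They occurred in 12 of the 24 members that fell and in 1 of the 5 that rose, FANCL. For comparison, the share was 10.5% of all tested genes that fell and 8.4% of those that rose, and 65.0% of the 20 proliferation genes with an entry. The letters also occurred in 15 of the 59 pathway-list genes with an entry. On the other repair lists, where more genes rose than fell, they occurred in 9 of 45. Both shares were below that of the members and above that of all tested genes.

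The members with E2F-type letters were RAD51AP1, PSMC3IP, RAD54L, XRCC3, EXO1, FANCD2, XRCC2, BRIP1, BLM, RMI1, MND1, FANCC and FANCL. Their matches lay between 172 bases before the start and 31 after it. UBE2T, FANCB and BRCA1 fell by 1.54 or more on the log2 scale with none of these letters in their windows. The letters TTTGAA, a core of the cell cycle element called CHR, on either strand, occurred in 3 of 30 members (UBE2T, BRIP1 and FANCC), or 10.0%, against 18.2% of all genes and 14.1% of tested genes. CCAAT, the box bound by NF-Y, on either strand, occurred in 14 of 30 members, or 46.7%, against 39.7% of all genes, 41.8% of tested genes and 46.0% of tested genes that fell. Among members that fell the share was 45.8%, and it was 60.0% of the 5 that rose. No match says only that the letters are not in these windows.

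**Figure D4:**
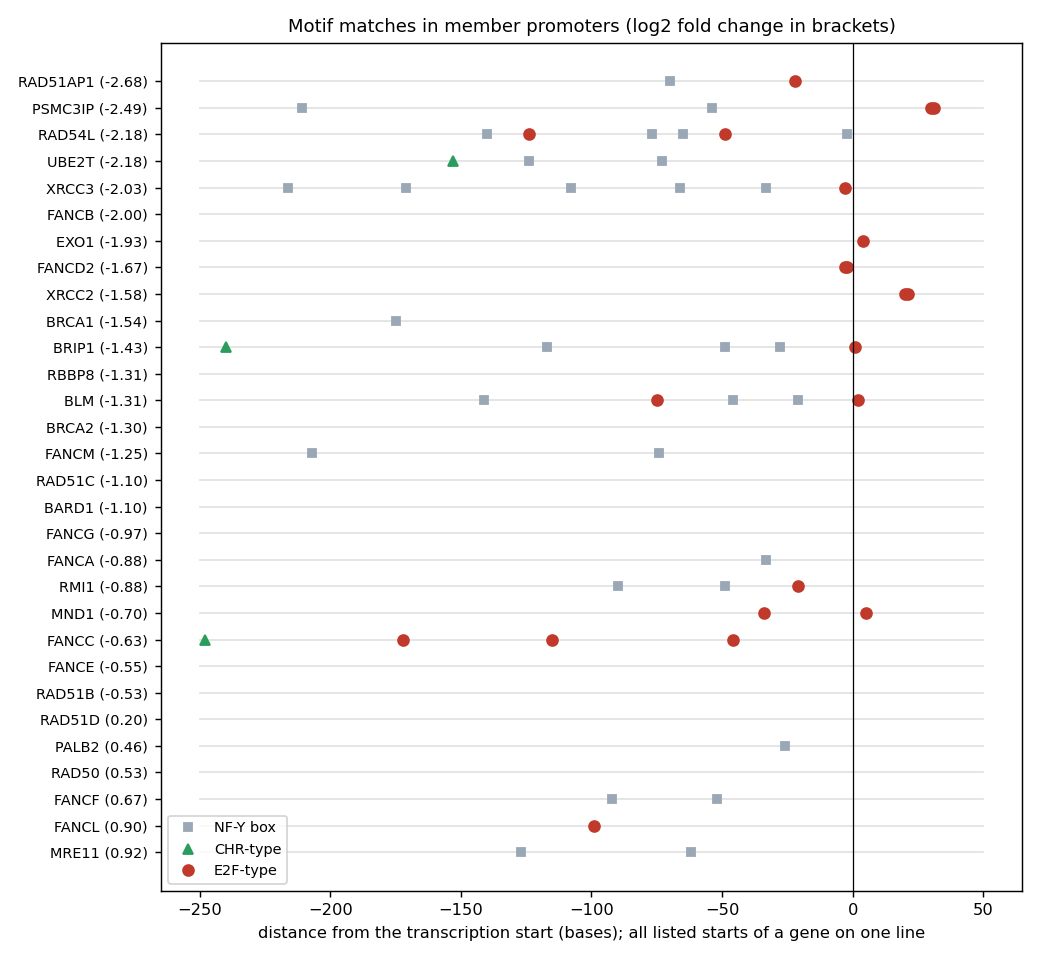
Each line is the window of 1 member from 250 bases before to 50 after the transcription start, all listed starts of a gene on 1 line, ordered by log2 fold change (in brackets) from the largest fall at the top. Circles are E2F-type letters, triangles CHR-type letters and squares NF-Y boxes; circles appear on 13 of 30 lines, 12 of them genes that fell.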

How the data were processed

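RNA of 6 libraries, 3 of TC-71 cells given BEZ235 and 3 given DMSO, was sequenced. The authors deposited gene read counts normalized between libraries (unit signal, at least 0). STAR 2.4.0, DESeq, SAMtools, Picard and FastQC and the build hg38 are named, without roles, per the submitters' processing notes. Rows are genes of FASTDB, per the file headers. No source used here states the counting rule, the strand or the RNA selection. Control columns were matched to DMSO samples by number. Each column was a whole multiple of 1 read's worth (0.835 to 1.16) for 100.0% of values within 0.01 normalized counts, which gave the read totals. Limits from counts cover counting error only.

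Genes with at least 10 normalized counts in at least 3 libraries were tested with limma 3.58.1 (trend, R 4.3.3) on log2(normalized count + 1), group as the only term, two-sided, Benjamini-Hochberg adjustment over 23923 genes, threshold 0.05. Fold changes on this scale understate changes of low genes; folds without a log are 2 raised to the log2 fold change. With 3 against 3, an exact permutation test of 1 gene cannot give a p below 0.1. P-values measure the spread between these replicate cultures of 1 line.

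Members and lists were chosen with earlier results of these data known. By rule, library values are given for the 3 largest changes, the smallest change and members against the majority in each role group; other lists give up to 3 genes with the smallest adjusted p in the main direction and 1 in the other, and RAD52, POLQ, USP1, TP53BP1, MKI67, PCNA, E2F1 and CDK1. FIRRM and FBXO18 were found under C1orf112 and FBH1, and SLX1A and SLX1B share a row. An item of the lists and of this rule is not reported here and is left out of the counts.

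Alternatives were other scalings (TMM, total count, quantile), pseudocounts of 0.5 and 10, filters, no trend, a block for replicate number, each library left out in turn, and edgeR 4.0.16 and DESeq2 1.42.0 on recovered reads. The script was tested on simulated data (23474 genes, 200 changed): limma recovered 50.7% of 1.5-fold, 80.6% of 2-fold and 98.5% of 4-fold changes and called 0.0473% of unchanged genes. In the data 66.3% of tested genes were called, a far larger share than was changed there, so these rates do not carry over to the data. Promoters and gene lengths came from RefSeq (GRCh38.p14) and GENCODE v29.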

Additional observations from a re-analysis of the deposited data

How the results depend on the processing

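Under all 17 alternatives 27 members were lower and 19 or 20 were at least 2-fold lower; 6 were higher except 5 with total-count scaling and 7 without DMSO replicate 2. Of 578 member values 576 kept their direction and side of the threshold; the exceptions, NBN and RAD51D, are given above. The median member log2 fold change of -1.18 became -1.27 with total-count scaling and -1.14 with quantile normalization, and -1.19 to -1.14 with each library left out; the cause was not tested. Total-count scaling moved the median of all genes by -0.10. Genes called ranged from 14285 to 16102. No source used here says whether same-numbered BEZ235 and DMSO libraries belong together. Their correlations were -0.04, 0.02 and 0.04 over all tested genes and 0.30, 0.23 and 0.06 over the members. A fit with the replicate block gave 27 lower, 6 higher, a median of -1.18 and 15917 genes called. edgeR called 15744 genes and DESeq2 15706. Of the pathway genes, 29 were lower except 33 with total-count scaling and 30 without DMSO replicate 1 or without DMSO replicate 2. Over all settings, base excision repair had 4 to 5 genes lower and 7 to 11 higher. Mismatch repair had 1 to 2 lower and 3 to 4 higher. End joining had 4 lower and 5 to 6 higher, and nucleotide excision repair had 6 lower and 10 to 11 higher. With total-count scaling the median was 0.06 for base excision repair and 0.03 for mismatch repair. Shared reads between overlapping rows may affect 13 members, XRCC3 and RAD50 among them.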
